A study of Mus musculus with 31 samples.

Results

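The genes described here encode the nuclear subunits of the last stretch of the respiratory chain, that is complex III, cytochrome c, complex IV and ATP synthase, in the hippocampus of diabetic mice with and without intermittent fasting (IF). They were taken by name from the expression table: every gene whose name begins with Uqcr, with Cox4 to Cox8 followed by a, b, c or i, or with Atp5, together with Cyc1, Cycs and Ndufa4. This gave 51 of the 23007 gene names, each read at its locus with the highest mean level over the 31 mice. Of these names 6 are those of pseudogenes (names ending in -ps), and 43 members, Atp5l2-ps among them, were expressed highly enough to be tested.

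The mice were 10 db/db-IF mice, 10 db/db mice and 11 db/m mice, with 1 hippocampal library per mouse, labelled as 3 months old. All were males on the C57BLKS/J background. The db/db-IF mice had no food for 24 h every other day over 28 days, whereas db/db and db/m animals were fed freely. Both db/db-IF and db/db mice are homozygous for db, a mutation of Lepr (the leptin receptor) that makes them obese and diabetic, and the db/m littermates used as controls have 1 mutant copy. No fasted group had an intact receptor, so effects of fasting apart from this genotype were not measured. The libraries are taken as separate mice, as their labels number them. A figure legend of the study counts fewer db/db and more db/db-IF mice for the RNA sequencing than the labels do. The groups used here follow the labels.

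Complex III passes electrons from ubiquinol to cytochrome c, a small soluble carrier, and complex IV (cytochrome c oxidase) passes them on to oxygen. Both pump protons across the inner mitochondrial membrane, and ATP synthase uses the returning protons to make ATP, which neurons consume in large amounts for ion pumping and synaptic transmission. Part of each complex is encoded by mitochondrial DNA, and the rest, including the members described here, in the nucleus. Several complex IV subunits exist in a form found in most tissues and a second form found mainly in heart and skeletal muscle, lung or testis.

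Promoters of members that were called higher together are shown first, as the sequence that precedes these separately transcribed genes. RefSeq promoters (GRCm38.p6) were at hand for 36 of the 51 members. The 250 bases before each start were searched on both strands for the letters GCGCATGCG (a core of the site of NRF1), AAGATGGCG (YY1), CCGGAAG (GABP) and TATAAA (the TATA box). The GCGCATGCG letters were found in 5 of the 36 members (13.9%; Atp5g2, Atp5k, Atp5l, Cox6a1 and Cycs) and in 1.45% of the 32851 promoters of the table. CCGGAAG was found in 8 members (22.2%; Atp5e, Atp5h, Atp5j, Atp5l, Cox6a1, Cox6b1, Uqcr11 and Uqcrh) and in 6.91% of all promoters. AAGATGGCG was found in 2 members (5.56%; Atp5j and Atp5sl) and in 0.606% of all promoters, and TATAAA in 2 members (5.56%; Atp5l and Cox7b2) and in 12.4% of all promoters. These are letter matches only. The 4 promoters printed here, 5′ to 3′ in the direction of the gene, belong to a complex III gene, a complex IV gene and the 2 ATP synthase genes of the dimer contact, with the matched letters in capitals. Where the letters read GCGCATGCGC, the NRF1 core matches on both strands and the matches overlap.
Uqcr11, chr10:80406822-80407071, minus strand: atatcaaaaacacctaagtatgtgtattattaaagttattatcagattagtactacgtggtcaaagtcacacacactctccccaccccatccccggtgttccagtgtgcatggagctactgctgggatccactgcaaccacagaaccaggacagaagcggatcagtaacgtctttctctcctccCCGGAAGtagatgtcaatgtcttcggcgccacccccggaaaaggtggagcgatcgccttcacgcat
Cox6a1, chr5:115348959-115349208, minus strand: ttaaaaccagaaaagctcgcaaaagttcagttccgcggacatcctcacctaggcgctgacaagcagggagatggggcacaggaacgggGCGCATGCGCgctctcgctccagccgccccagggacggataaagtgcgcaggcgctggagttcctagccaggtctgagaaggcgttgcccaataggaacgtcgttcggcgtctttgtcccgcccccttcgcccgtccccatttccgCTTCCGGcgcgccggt
Atp5k, chr5:108434400-108434649, minus strand: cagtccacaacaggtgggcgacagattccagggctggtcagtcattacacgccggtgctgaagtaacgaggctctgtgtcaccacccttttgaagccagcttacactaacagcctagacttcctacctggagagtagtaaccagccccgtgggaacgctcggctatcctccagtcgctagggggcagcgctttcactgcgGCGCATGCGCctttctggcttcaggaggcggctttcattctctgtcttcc
Atp5l, chr9:44920743-44920992, minus strand: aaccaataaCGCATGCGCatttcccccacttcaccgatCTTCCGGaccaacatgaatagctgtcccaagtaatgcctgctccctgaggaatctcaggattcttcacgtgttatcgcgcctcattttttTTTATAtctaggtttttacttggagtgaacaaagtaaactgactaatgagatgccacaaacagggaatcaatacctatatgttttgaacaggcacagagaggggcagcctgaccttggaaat

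Levels are FPKM, fragments per kilobase of transcript scaled to the mapped fragments of the library, as deposited, and differences are on the scale of log2(FPKM + 1). A locus was tested if its FPKM was above 1 in at least 10 mice, which left 17139 of 27094 loci. Calls are those of limma with Benjamini-Hochberg adjustment over all of these loci, at an adjusted p under 0.05. Without read counts in the table the depth is unknown, and the spread between mice is the only error given. In each mouse 16242 to 17172 loci exceeded 1 FPKM. Neuronal markers were found in all libraries, with Slc17a7 at 1572 FPKM (median) in db/db-IF, 1656 FPKM in db/db mice and 1558 FPKM in db/m mice. Snap25, Syt1, Grin1 and Gad1 had lower medians in db/db-IF (1599, 66.8, 378 and 78.6 FPKM) than in db/db mice (1921, 90.8, 457 and 95.6 FPKM). Rbfox3 had a higher one (316 against 278 FPKM).

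Of the 51 members, 19 averaged over 100 FPKM across the 31 mice. Ndufa4, first assigned to complex I and now counted as a complex IV subunit, stood highest with 3356 FPKM on average, followed by Cox6c with 734 FPKM and Cox8a with 455 FPKM. In complex III the core protein gene Uqcrc1 was highest with 343 FPKM, and in ATP synthase it was Atp5a1, the alpha subunit of the F1 head, with 199.9 FPKM. Within a complex, subunits that are present in equal numbers in the protein differed widely in FPKM: Uqcrq averaged 28.8 FPKM and Uqcrb 245 FPKM. At the low end 9 members averaged under 1 FPKM. For 38 of the 43 tested members the coefficient of variation within db/db-IF mice was under 20%, against 39 in db/db and 37 in db/m mice. Its median was 12.2% in db/db-IF, 9.47% in db/db and 7.36% in db/m mice.

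Fasting was compared with free feeding in the db/db genotype first. Of the 43 tested members 35 were higher and 0 were lower in db/db-IF than in db/db mice, with a median log2 difference of 0.33, whereas 23.7% of all tested loci were called higher and 27.4% lower, with a median of -0.02. In complex III with cytochrome c 8 of 10 members rose, in complex IV 13 of 15 and in ATP synthase 14 of 18. The medians were 0.30, 0.36 and 0.23 on the log2 scale in this order. The 18 names counted with ATP synthase include the pseudogene name Atp5l2-ps and Atp5s and Atp5sl, which are not subunits. Of these, Atp5l2-ps and Atp5sl are among the 14. Cox6a2, which is among the 13 of complex IV, and Cox6b2 passed the filter on low values only with the help of the db/db-IF mice. Of the 41 members that passed it in the 21 db/db and db/m mice alone, 34 were higher. At an unadjusted p under 0.05 limma also gave 35 higher and 0 lower, against 4540 and 5212 of the 17139 tested loci. Atp5a1 and Uqcrc2 were the members with a difference below 0 (-0.08 and -0.04), and 1 member, Atp5a1, was called lower (-0.11) by an ordinary linear model that included a library-size term. In bulk tissue, more RNA of a gene per cell and more cells that express it cannot be told apart. These counts move with a slope of each library on transcript length, described with the lengths of the members. With that slope as a covariate 1 member was called higher and 0 lower. Calls fell for loci in general in that fit, to 206 higher and 64 lower of the 17139 tested loci.

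**Figure D1:**
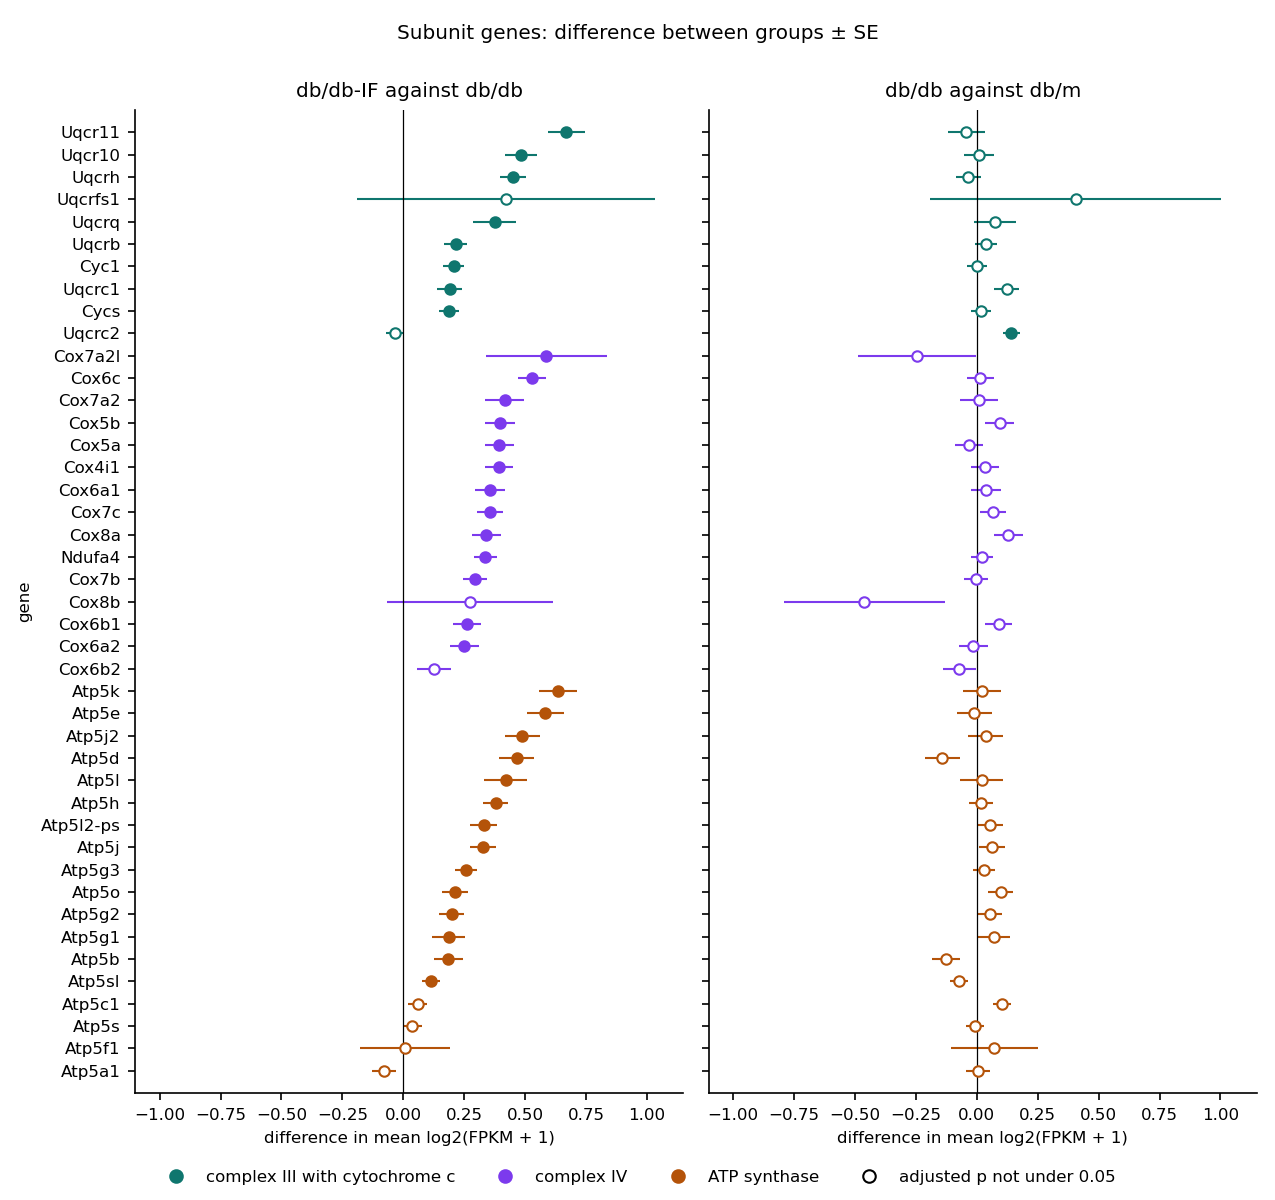
Difference between group means (x axis, log2(FPKM + 1), with the SE as a bar) for each of the 43 tested members (y axis), with db/db-IF against db/db on the left and db/db against db/m on the right. Filled points passed an adjusted p under 0.05: 35 on the left, all above 0, and only Uqcrc2 on the right.

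In complex III the largest differences were those of 3 small subunits, Uqcr11, Uqcr10 and Uqcrh. Uqcr11, a small subunit at the edge of the complex, ranged between 102 and 164 FPKM in db/db-IF mice (median 114), between 66.6 and 99.6 FPKM in db/db mice (median 73.2) and between 70.2 and 91.1 FPKM in db/m mice (median 78.1). Every db/db-IF mouse lay above every mouse of the other groups. The difference between db/db-IF and db/db mice was 0.67 ± 0.0763 (SE, limma adjusted p = 2.52e-07). Uqcrh, the hinge protein that contacts cytochrome c1, had 65.9 to 91.4 FPKM in db/db-IF mice (median 73.2), 49.0 to 63.4 FPKM in db/db mice (median 52.4) and 49.2 to 62.6 FPKM in db/m mice (median 54.5). Here, too, the db/db-IF mice were separate from both other groups, with a difference of 0.45 ± 0.0532 from db/db mice (SE, limma adjusted p = 3.26e-07).

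Uqcr10, another small subunit, reached 312 to 451 FPKM in db/db-IF (median 344), 212 to 305 FPKM in db/db (median 249.9) and 216 to 282 FPKM in db/m mice (median 252). Its groups did not overlap either (0.48 ± 0.0646, SE, limma adjusted p = 1.16e-06 against db/db). Cyc1, the cytochrome c1 gene that carries the heme handing electrons to cytochrome c, differed less, with 39.1 to 56.9 FPKM in db/db-IF (median 45.1), 35.9 to 42.6 FPKM in db/db (median 39.6) and 37.5 to 41.4 FPKM in db/m mice (median 39.6). Its ranges overlapped, and the difference from db/db mice was 0.21 ± 0.0419 (SE, limma adjusted p = 1.81e-04). Cycs, cytochrome c itself, rose by 0.19, Uqcrc1 by 0.19, Uqcrb by 0.22 and Uqcrq by 0.38 on the log2 scale in the same comparison.

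The core protein gene Uqcrc2 had 98.4 to 119.2 FPKM in db/db-IF (median 111), 101.9 to 119.4 FPKM in db/db (median 114) and 96.6 to 111 FPKM in db/m mice (median 101). The db/db-IF and db/db mice covered almost the same range, and both groups overlapped with db/m mice. Uqcrc2 was not called between db/db-IF and db/db mice (-0.04 ± 0.0349, SE, limma adjusted p = 0.408), but was higher in db/db mice than in db/m mice (0.14 ± 0.0341, SE, limma adjusted p = 0.0112). The last call was lost in the mice of higher read quality alone, and it misses an adjusted p of 0.01.

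Uqcrfs1, the Rieske iron-sulfur protein that takes the first electron from ubiquinol, was split into 2 levels within every group, and was picked out after its values were seen. Levels of 15.8 to 20.6 FPKM were found in 4 of 10 db/db-IF mice, of 15.2 to 20.05 FPKM in 5 of 10 db/db mice and of 15.0 to 23.4 FPKM in 7 of 11 db/m mice. The other mice had 135 to 146 FPKM in db/db-IF, 118 to 144 FPKM in db/db and 105 to 113 FPKM in db/m mice. No mouse lay between the levels, a gap of 2.12 on the log2 scale. The cause of the split was not tested, and the FPKM of this gene are given as listed. With such a spread the gene was not called (0.42 ± 0.612, SE, limma adjusted p = 0.585 between db/db-IF and db/db mice). Cycs is named at a second locus besides the one used here, and that second locus is listed at 0 in 1 of 10 db/db-IF, 3 of 10 db/db and 1 of 11 db/m mice.

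**Figure D2:**
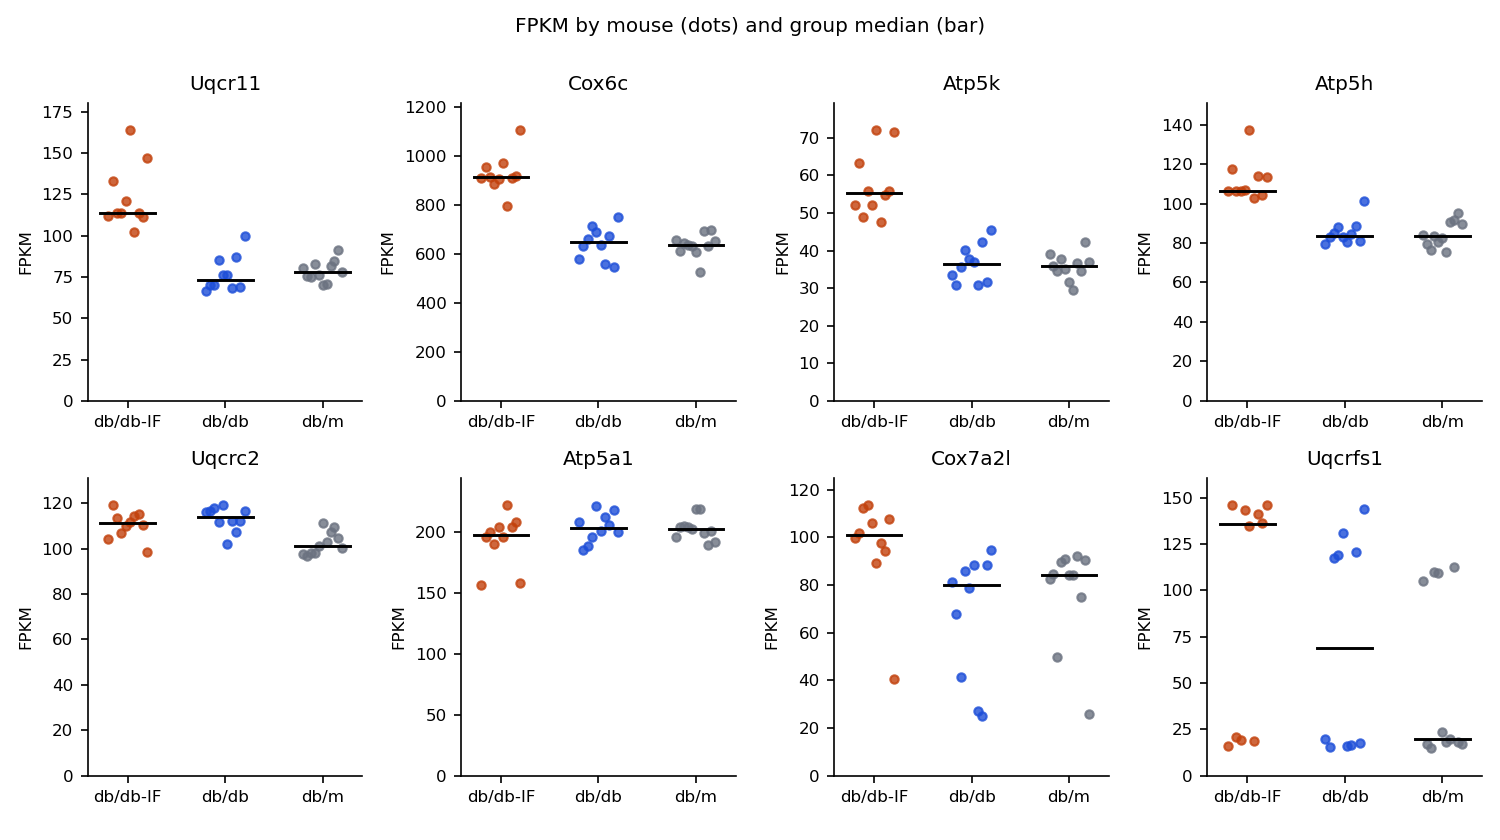
FPKM of 8 members (y axes, starting at 0) in each mouse (dots) with the group median (bar), for db/db-IF, db/db and db/m mice from left to right. Uqcr11, Cox6c, Atp5k and Atp5h are higher in every db/db-IF mouse than in any other mouse, Uqcrc2 and Atp5a1 overlap between the groups, and Cox7a2l and Uqcrfs1 have mice far below the rest of their group.

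In complex IV the called members other than Cox6a2 rose by 0.26 to 0.59 on the log2 scale. Cox6c, a small subunit that spans the membrane, had 798 to 1108 FPKM in db/db-IF (median 914), 546 to 750.3 FPKM in db/db (median 650.2) and 529 to 699 FPKM in db/m mice (median 638). Its lowest db/db-IF mouse was above the highest mouse of either other group. Its difference between db/db-IF and db/db mice, 0.53 ± 0.0567, had the smallest adjusted p of the members (SE, limma adjusted p = 1.5e-07). Ndufa4 had 3512 to 4361 FPKM in db/db-IF (median 3931), 2821 to 3609 FPKM in db/db (median 3069) and 2752 to 3340 FPKM in db/m mice (median 3016). The db/db-IF and db/db ranges overlapped at their edges, with a difference of 0.34 ± 0.0463 (SE, limma adjusted p = 1.61e-06).

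Cox4i1, the form of subunit 4 found in most tissues, had 251 to 383 FPKM in db/db-IF (median 286), 196 to 264 FPKM in db/db (median 213) and 201 to 233 FPKM in db/m mice (median 209.98). The overlap with db/db mice was slight and there was none with db/m mice (0.39 ± 0.0574, SE, limma adjusted p = 3.45e-06 against db/db). Cox7c, a small membrane subunit, had 89.0 to 115 FPKM in db/db-IF (median 101), 71.9 to 96.9 FPKM in db/db (median 77.1) and 68.3 to 88.4 FPKM in db/m mice (median 72.0). The ranges overlapped through the highest db/db mouse, and the difference from db/db mice was 0.36 ± 0.0537 (SE, limma adjusted p = 5.23e-06). Cox5a and Cox5b, which sit on the matrix side, rose by 0.39 and 0.40, and the ranges of Cox5b did not overlap between db/db-IF mice and the rest.

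In ATP synthase the differences ran between -0.08 for Atp5a1 and 0.64 for Atp5k. Atp5k, subunit e, which helps to join 2 enzymes into a dimer, had 47.5 to 72.1 FPKM in db/db-IF (median 55.3), 30.9 to 45.6 FPKM in db/db (median 36.3) and 29.6 to 42.3 FPKM in db/m mice (median 35.8). It was separate between db/db-IF mice and all others, with a difference of 0.64 ± 0.079 from db/db mice (SE, limma adjusted p = 4.8e-07). Atp5e, the epsilon subunit of the central stalk, had 72.5 to 114 FPKM in db/db-IF (median 81.5), 48.5 to 74.2 FPKM in db/db (median 54.6) and 50.2 to 65.0 FPKM in db/m mice (median 57.1). Only the edges of the db/db-IF and db/db ranges overlapped (0.58 ± 0.0746, SE, limma adjusted p = 6.51e-07).

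Atp5h, subunit d of the peripheral stalk that holds the F1 head still, had 103 to 137 FPKM in db/db-IF (median 107), 79.3 to 101 FPKM in db/db (median 83.8) and 75.6 to 95.1 FPKM in db/m mice (median 83.5). It did not overlap with either other group (0.38 ± 0.0505, SE, limma adjusted p = 1.09e-06 against db/db). Atp5j2, subunit f of the membrane part, had 133 to 194 FPKM in db/db-IF (median 139), 89.3 to 136 FPKM in db/db (median 98.2) and 92.4 to 117 FPKM in db/m mice (median 100.2), with a difference of 0.49 ± 0.0724 from db/db mice (SE, limma adjusted p = 4.05e-06). Among the other members Atp5d rose by 0.47, Atp5l by 0.42, Atp5j by 0.33, the pseudogene name Atp5l2-ps by 0.33 and Atp5o by 0.21.

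The large subunits of the F1 head, picked out after their values were seen, had small differences. Atp5a1 had 156 to 222 FPKM in db/db-IF (median 198), 185 to 221 FPKM in db/db (median 203) and 190 to 219 FPKM in db/m mice (median 202), with a difference of -0.08 ± 0.0505 between db/db-IF and db/db mice (SE, limma adjusted p = 0.193). Atp5b, the catalytic beta subunit, differed by 0.19 ± 0.0586 (SE, limma adjusted p = 0.00961) and Atp5c1, the gamma subunit that turns inside the head, by 0.06 ± 0.0383 (SE, limma adjusted p = 0.204). Atp5f1, subunit b of the peripheral stalk, was also split in every group, with a gap of 0.47 on the log2 scale. It had 81.6 to 115 FPKM in 4 db/db-IF mice, 98.8 to 111 FPKM in 3 db/db mice and 96.7 to 109 FPKM in 4 db/m mice, and 169 to 209.5 FPKM, 159.8 to 191 FPKM and 164 to 188 FPKM in the other mice of these groups. The cause was not tested, and the difference between db/db-IF and db/db mice was 0.01 ± 0.185 (SE, limma adjusted p = 0.977). Atp5s and Atp5sl, which carry the Atp5 name without being subunits of the enzyme, differed by 0.04 and 0.11, and the second was called higher (limma adjusted p = 0.0127).

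The groups did not overlap for 7 of the 43 tested members: in Atp5h, Atp5k, Cox5b, Cox6c, Uqcr10, Uqcr11 and Uqcrh, every db/db-IF mouse was above every db/db mouse and every db/m mouse. Among all tested loci, 2.23% had every db/db-IF mouse above every db/db mouse, and 1.37% had every db/db-IF mouse above all others. The reverse, every db/db-IF mouse below every db/db mouse, held for 0 members and 3.28% of all tested loci.

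The comparison of db/db-IF with db/m mice shares the db/db-IF mice with the first one. It gave 34 members higher and 0 lower (26.2% and 29.4% of all tested loci), with a median of 0.35. At an unadjusted p under 0.05 the same counts were reached, 34 and 0, against 4813 and 5546 of the 17139 tested loci. Called higher against each of the 2 control groups were 32 members. The joint count was not made over all tested loci, and both comparisons use the same db/db-IF mice. Atp5c1 (0.16) and Uqcrc2 (0.11) were called higher against db/m but not against db/db mice, whereas Atp5b, Atp5sl and Cox7a2l were called higher against db/db but not against db/m mice. Set against the db/db and db/m mice combined, 33 members were higher and 0 lower in db/db-IF mice (26.8% and 30.9% of all tested loci), with a median of 0.36. In this contrast 36 were higher and 0 lower at an unadjusted p under 0.05, against 4901 and 5727 of the 17139 tested loci. Atp5a1 was called lower in both of these comparisons as well by the ordinary linear model that included a library-size term (-0.11 each). The 34, 32 and 33 members called higher include Cox6a2, which entered the tests through the db/db-IF mice.

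Between db/db and db/m mice the members were called no more often than loci in general. Uqcrc2 alone was called among the 43 members, as higher, and 0 were lower, against 2.96% higher and 2.79% lower of all tested loci. At an unadjusted p under 0.05 limma gave 4 members higher and 1 lower, against 1804 and 1615 of the 17139 tested loci. The median of the members was 0.02 and that of all tested loci 0.01. The next smallest adjusted p was that of Atp5c1, which had 162 to 184 FPKM in db/db (median 176) and 156 to 176 FPKM in db/m mice (median 163), a difference of 0.10 ± 0.0374 (SE, limma adjusted p = 0.096). The remaining differences ran between -0.46 for Cox8b and 0.41 for Uqcrfs1. Both of these had large errors (SE 0.331 and 0.598). For 30 of the 43 members the mean was higher in db/db mice than in db/m mice. The same count was not made over all tested loci, whose median difference was also above 0, so it is given as a description. No member had every db/db mouse above every db/m mouse, which 0.257% of all tested loci had.

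The tissue forms of complex IV subunits were low in this hippocampal RNA, with group medians of at most 1.29 FPKM apart from Cox8b. Cox4i2, the form of lung and hypoxic cells, had 0.2996 to 0.539 FPKM in db/db-IF (median 0.395), 0.211 to 0.407 FPKM in db/db (median 0.305) and 0.252 to 0.439 FPKM in db/m mice (median 0.346). Cox4i1 exceeded it by a median of 723-fold within the same db/db-IF mouse, 721-fold in db/db and 607-fold in db/m mice. The testis form Cox7b2 had medians of 0.203, 0.179 and 0.173 FPKM in db/db-IF, db/db and db/m mice, and the heart and muscle form Cox7a1, whose locus also carries the name Gm5113, had 0.376, 0.485 and 0.389 FPKM. These 3 forms were too low to be tested. Their partners Cox7b and Cox7a2 exceeded them by medians of 189-fold and 79.3-fold in db/db-IF mice, 167-fold and 48.7-fold in db/db mice, and 192-fold and 54.8-fold in db/m mice.

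Cox6a2, the heart and skeletal muscle form of subunit 6a, lay near 1 FPKM, with 0.981 to 1.58 FPKM in db/db-IF (median 1.29), 0.723 to 1.06 FPKM in db/db (median 0.916) and 0.618 to 1.56 FPKM in db/m mice (median 0.901). It exceeded 1 FPKM in 9 db/db-IF, 3 db/db and 2 db/m mice, so that it entered the tests through the db/db-IF mice, and its difference from db/db mice (0.25 ± 0.0601, SE) is given as a description. Its partner Cox6a1, found in most tissues, had 128 to 216 FPKM in db/db-IF (median 155), 111 to 149 FPKM in db/db (median 116) and 108 to 129.9 FPKM in db/m mice (median 119), with a difference of 0.36 ± 0.0622 (SE, limma adjusted p = 3.2e-05). The testis form Cox6b2 had medians of 1.03 FPKM in db/db-IF, 0.814 FPKM in db/db mice and 0.858 FPKM in db/m mice, and was not called (0.13 ± 0.0692, SE, limma adjusted p = 0.128). Its partner Cox6b1 had 282 to 423 FPKM in db/db-IF (median 323), 246 to 318 FPKM in db/db (median 266) and 237 to 294 FPKM in db/m mice (median 250.2) and rose by 0.26 ± 0.0586 (SE, limma adjusted p = 5.25e-04 against db/db).

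The partners in the other families were also called higher in db/db-IF than in db/db mice. Cox7a2 had 25.8 to 41.7 FPKM in db/db-IF (median 28.2), 17.7 to 28.8 FPKM in db/db (median 21.3) and 18.8 to 25.2 FPKM in db/m mice (median 21.1), a difference of 0.42 ± 0.0797 (SE, limma adjusted p = 9.27e-05). Its locus also carries the name Gm39378. Cox7b had 35.3 to 46.0 FPKM in db/db-IF (median 37.9), 27.5 to 35.4 FPKM in db/db (median 31.9) and 26.7 to 34.5 FPKM in db/m mice (median 31.1), a difference of 0.29 ± 0.0509 (SE, limma adjusted p = 2.87e-05). Cox8a had 463 to 700.2 FPKM in db/db-IF (median 545), 383 to 531 FPKM in db/db (median 411) and 361 to 440 FPKM in db/m mice (median 399), a difference of 0.34 ± 0.06 (SE, limma adjusted p = 3.53e-05). Cox7a2l, which joins complex III and complex IV into supercomplexes, had 40.7 to 114 FPKM in db/db-IF (median 101), 25.2 to 94.8 FPKM in db/db (median 80.1) and 26.0 to 92.2 FPKM in db/m mice (median 84.3). It was below 50 FPKM in 1 db/db-IF, 3 db/db and 2 db/m mice, and its call was at the threshold (0.59 ± 0.249, SE, limma adjusted p = 0.049). The call was lost in 22 of the 31 fits that left out 1 mouse, with a limma adjusted p up to 0.112, without mouse 7 of db/db.

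Cox8b, the heart and muscle form of subunit 8, was the tissue form with the highest level and the widest range. It had 1.299 to 6.10 FPKM in db/db-IF (median 3.49), 0.617 to 6.004 FPKM in db/db (median 2.30) and 1.04 to 12.1 FPKM in db/m mice (median 5.46), and was not called in any comparison. The muscle markers Ckm and Myl1 stayed under 1 FPKM in all mice. Acta1 and Myh4 of the same list (4 of its 5 markers were found) had medians of 1.45 and 4.68 FPKM in db/db-IF mice. These were 1.37 and 6.19 FPKM in db/db mice, and 1.27 and 6.21 FPKM in db/m mice. The highest values of Myh4 were 14.5, 9.18 and 78.5 FPKM in the same order of groups, and Ckm reached 0.587 FPKM in a db/m mouse. A relation of Cox8b to these muscle markers was not tested. Ttr, the defining gene of the choroid plexus, which lies beside the hippocampus, also varied widely, with 4208 to 31657 FPKM in db/db-IF (median 20625), 762 to 26189 FPKM in db/db (median 8736) and 660.0 to 32960 FPKM in db/m mice (median 18552). Folr1 and Aqp1, also on that list, had medians of 2.37 and 5.01 FPKM, 1.01 and 2.29 FPKM, and 1.82 and 8.71 FPKM in the same groups.

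Cox8b was therefore set beside Ttr within each group, on the log2(FPKM + 1) scale, a choice made after their values were seen. Pearson's r was 0.84 in db/db-IF (Spearman's rho 0.81, n = 10), 0.87 in db/db (rho 0.84, n = 10) and 0.93 in db/m mice (rho 0.92, n = 11). The permutation p of r, adjusted over the 3 groups, was 0.00324 in db/db-IF, 7.2e-04 in db/db and 3.9e-04 in db/m mice, and that of rho was 0.0072, 0.00604 and 6.9e-04. The unadjusted permutation p of r was 0.00324, 4.8e-04 and 1.3e-04, and that of rho 0.0072, 0.00403 and 2.3e-04, in the same order. The adjustment does not cover the choice of this pair, so these p-values are given as a description. Without the 2 mice farthest from the median of Ttr, r was 0.77, 0.72 and 0.90. The 2 genes were measured in the same libraries, and the share of choroid plexus tissue in a sample was not measured otherwise.

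**Figure D3:**
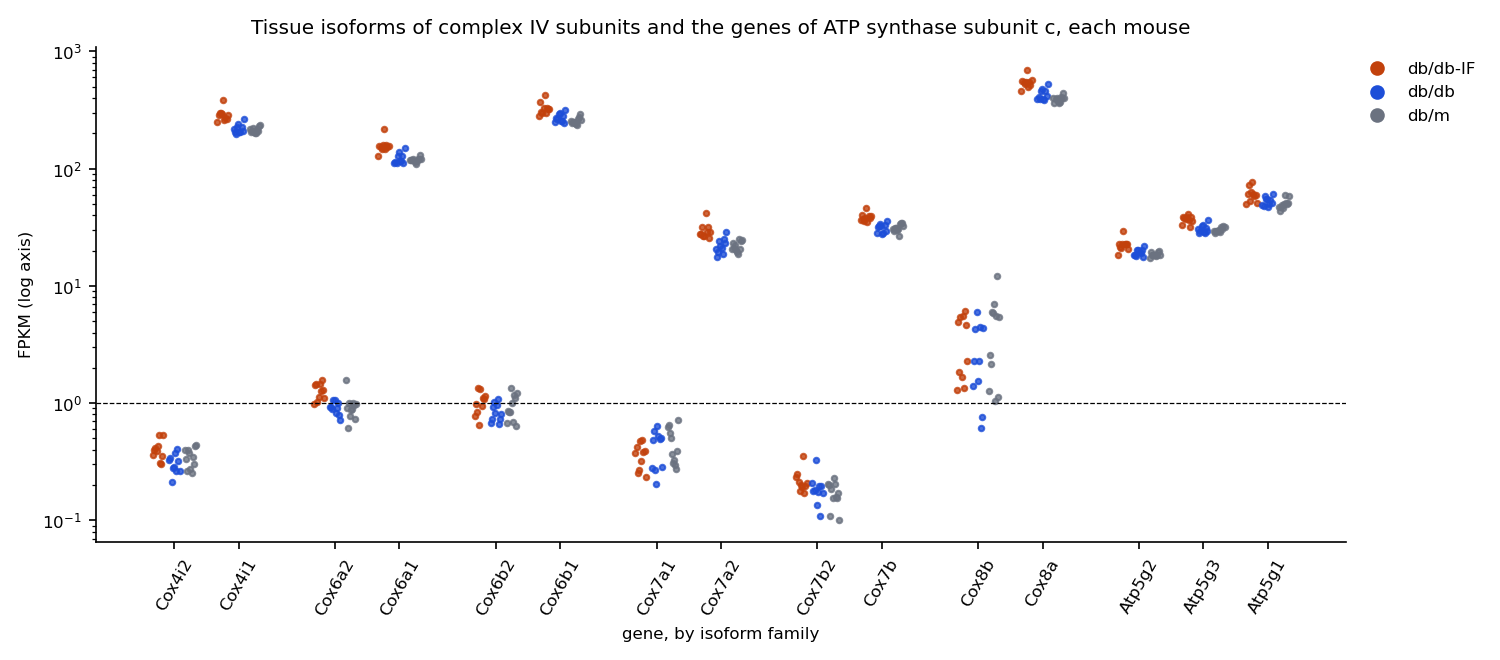
FPKM (y axis, log scale, dashed line at 1 FPKM) of the isoform families of complex IV and of the 3 genes for subunit c of ATP synthase (x axis) in each mouse, with db/db-IF, db/db and db/m mice from left to right. The tissue forms lie near or under 1 FPKM in all 3 groups, apart from Cox8b, while Cox4i1, Cox6a1, Cox6b1 and Cox8a lie above 100 FPKM.

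The ratio of isoforms within the same mouse was tested for 3 tissue forms over their partners (Cox6a2, Cox6b2 and Cox8b) and for Atp5g1 and Atp5g2 over Atp5g3. Of 15 comparisons, 5 ratios in 3 pairs of groups, 0 passed an adjusted p under 0.05 in a two-sided permutation test. The largest shift by p was that of Cox6b2 over Cox6b1, with a mean log2 ratio of -7.35 ± 0.186 in db/db-IF and -7.05 ± 0.206 in db/m mice (SD, n = 10 and 11, permutation p = 0.0036, adjusted p = 0.054). It was the only one of the 15 with an unadjusted p under 0.05. Cox6b2 and Cox6a2 passed the filter on low values only with the help of the db/db-IF mice. The p-values of their ratios are therefore given as a description. Without the added 1, the mean share of Cox6b2 in the FPKM of both forms was 0.311% in db/db-IF, 0.310% in db/db and 0.370% in db/m mice. Cox6a2 over Cox6a1 differed by -0.11 between db/db-IF and db/db mice (permutation p = 0.174, adjusted p = 0.372), a direction that turned with a pseudocount of 0.1.

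Subunit c, which forms the rotating ring in the membrane, is encoded by 3 genes whose mature proteins are the same. Atp5g1 had 50.1 to 77.1 FPKM in db/db-IF (median 59.7), 46.8 to 60.2 FPKM in db/db (median 52.4) and 43.2 to 59.2 FPKM in db/m mice (median 49.7). Atp5g3 had 31.8 to 41.4 FPKM in db/db-IF (median 37.5), 27.97 to 36.7 FPKM in db/db (median 29.97) and 28.4 to 32.2 FPKM in db/m mice (median 29.5). Atp5g2, whose locus also carries the name Mir688, had 18.4 to 29.5 FPKM in db/db-IF (median 22.6), 17.8 to 22.0 FPKM in db/db (median 19.2) and 17.3 to 19.95 FPKM in db/m mice (median 18.4).

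All 3 subunit c genes rose in db/db-IF against db/db mice, with overlapping ranges. The difference was 0.19 ± 0.0692 for Atp5g1 (SE, limma adjusted p = 0.026), 0.26 ± 0.0459 for Atp5g3 (limma adjusted p = 4.4e-05) and 0.20 ± 0.0517 for Atp5g2 (limma adjusted p = 0.00215). The call of Atp5g1 was lost without mouse 4 (limma adjusted p = 0.0575) or mouse 7 (0.0623) of db/db-IF and without mouse 6 of db/db (0.0503). Their mean shares of the summed FPKM differed between groups by about the spread between mice or by less. Atp5g1 gave 50.3% ± 2.28 in db/db-IF, 51.2% ± 1.58 in db/db and 50.7% ± 2.28 in db/m mice (SD, n = 10, 10 and 11), Atp5g3 30.97% ± 2.07, 29.9% ± 1.04 and 30.4% ± 1.205, and Atp5g2 18.7% ± 1.06, 18.8% ± 0.875 and 18.8% ± 1.26.

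The members are short transcripts, and short transcripts in general were higher in db/db-IF mice. The longest annotated transcript of the tested members had a median of 753 bases (312 to 4715), against 3132 bases for 12124 other tested loci with a length. Among the other loci the share called higher in db/db-IF than in db/db mice was 54.7% at up to 600 bases, 53.1% between 600 and 1000, 34.4% between 1000 and 2000, 14.6% between 2000 and 4000 and 6.42% above 4000 bases. Among the members it was 10 of 12, 15 of 15, 7 of 12, 2 of 3 and 1 of 1 in the same classes. The 15 include Cox6a2, which entered the tests through the db/db-IF mice. The median difference of the members was 0.39 at up to 600 bases and 0.36 in the class above it, against 0.21 and 0.18 for the other loci of these classes, and 0.20 between 1000 and 2000 bases against 0.08. Between db/db and db/m mice the share called higher was 2.80%, 4.69%, 5.51%, 3.31% and 1.65% in the same classes, with no steady fall.

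**Figure D4:**
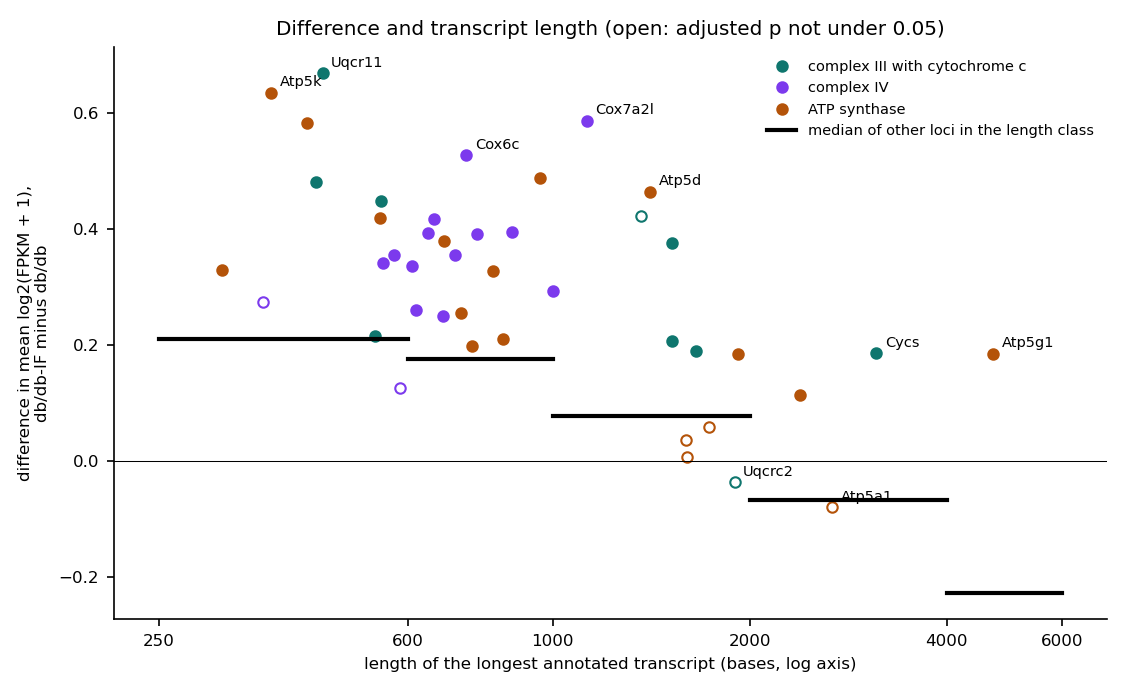
Difference between db/db-IF and db/db mice (y axis, log2(FPKM + 1)) of each tested member against the length of its longest annotated transcript (x axis, bases, log scale). The black bars are the medians of other loci in 5 length classes, from 0.21 at up to 600 bases to -0.23 above 4000 bases, and open points did not pass an adjusted p under 0.05.

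A slope on transcript length was therefore computed for each mouse over the other loci, as the change of the log2 deviation from the locus mean per doubling of length. It was between -0.242 and -0.0460 in db/db-IF (median -0.0769), between -0.0401 and 0.0732 in db/db (median 0.0488) and between 0.00101 and 0.0834 in db/m mice (median 0.0536). Every db/db-IF mouse was below every other mouse. The slope divides the mice in the same way as fasting does, so the 2 cannot be told apart with it as a covariate. In that fit Cox6c remained called higher in db/db-IF than in db/db mice (0.29, limma adjusted p = 0.0486) and the median of the members was 0.05. Of the 17139 tested loci, 206 were higher and 64 lower there, with a median of 0.02. With the trend on length removed from each mouse instead, 29 members were higher and 0 lower, with a median of 0.18. Of the 17139 tested loci, 4998 were higher and 3097 lower after this removal, with a median of 0.04. Uqcr11 (0.48), Atp5k (0.43) and Cox6c (0.37) remained called in that fit, whereas Atp5g2 (0.04), Atp5o (0.06), Cox6a2 (0.09), Cox6b1 (0.09), Cox7a2l (0.47) and Uqcrb (0.03) did not.

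Mice with a low slope were also high in the members. Mouse 7 of db/db-IF had the lowest slope of all (-0.242) and was the highest of its group in 28 of the 43 members. Mouse 10 of db/db had the lowest slope of its group (-0.0401) and was the highest of its group in 32 members, and mouse 10 of db/m, with the lowest slope of that group (0.00101), in 21 members. Within each group the libraries form a set of lower and a set of higher read quality in the study's sequencing summary. In either set alone 28 members were higher and 0 lower in db/db-IF than in db/db mice. Of the 17139 tested loci, 3127 were higher and 3396 lower in the set of lower read quality. In the set of higher read quality these were 1393 and 2091. Without mouse 7 of db/db-IF and mouse 10 of db/db, 35 members were higher and 0 lower in db/db-IF than in db/db mice. Of all tested loci, 3938 were then higher and 4593 lower.

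**Figure D5:**
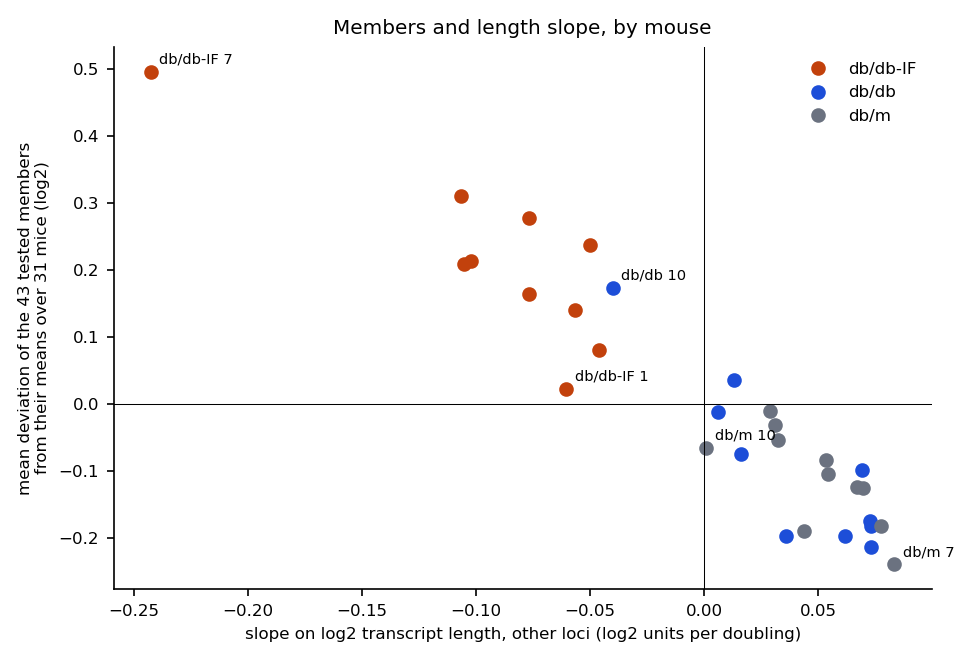
Mean deviation of the 43 tested members from their own means over the 31 mice (y axis, log2) against the length slope per mouse (x axis, log2 units per doubling of length), for db/db-IF, db/db and db/m mice. The db/db-IF mice lie at the upper left with slopes under -0.04, and mouse 10 of db/db lies nearest to them.

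Marker levels of cell types are given as measured, and their part in these results was not tested. The summed level of 5 astrocyte markers was 1544 to 2650.3 FPKM in db/db-IF (median 2080), 2248 to 3529 FPKM in db/db (median 2786) and 1240 to 3521 FPKM in db/m mice (median 3153). Slc1a2 makes up most of this sum, and its lowest, median and highest values were 799.9, 1251 and 1785 FPKM in db/db-IF, 1528, 1897 and 2645 FPKM in db/db and 218, 2228 and 2559.9 FPKM in db/m mice. Gfap and Aldoc averaged 228 and 475 FPKM in db/db-IF, 218 and 444 FPKM in db/db and 288 and 462 FPKM in db/m mice, and Aqp4 came down to 0.0755, 0.136 and 0.251 FPKM in single mice of these groups. The sum of 6 neuronal markers was 3342 to 4586 FPKM in db/db-IF (median 3930), 3748 to 4692 FPKM in db/db (median 4434) and 3766 to 4438 FPKM in db/m mice (median 4127). The sum of 5 markers of hippocampal subfields was 86.8 to 293 FPKM in db/db-IF (median 207), 115 to 385 FPKM in db/db (median 289) and 134 to 314 FPKM in db/m mice (median 251). Among them Neurod6 had 35.7 to 59.7 FPKM in db/db-IF, 59.1 to 89.5 FPKM in db/db mice and 35.1 to 58.8 FPKM in db/m mice. The means of Wfs1, which makes up most of this sum, and of Prox1 were lower in db/db-IF mice (141 and 3.697 FPKM) than in db/db mice (198 and 7.89 FPKM). Those of Spink8 and Lct were higher (2.02 and 2.898 against 1.79 and 2.47 FPKM). The sum of 4 erythroid markers, 2 of which share a locus, was 111 to 437 FPKM in db/db-IF (median 171), 73.1 to 194 FPKM in db/db (median 118) and 62.2 to 132 FPKM in db/m mice (median 91.2). The 5 oligodendrocyte markers summed to medians of 7001, 6367 and 6879 FPKM in the same order of groups, the 5 microglial markers to 253, 266 and 311 FPKM and the 4 endothelial markers to 146, 148 and 151 FPKM.

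The neighbouring parts of the respiratory chain were counted with lists chosen with earlier results of these data known. Their counts stand against 23.7% of all tested loci called higher and 27.4% lower in db/db-IF against db/db mice. At an unadjusted p under 0.05, 4540 of the 17139 tested loci were higher and 5212 lower. Mitochondrial DNA encodes the catalytic subunits of complex IV, the cytochrome b of complex III and 2 subunits of ATP synthase, whose 6 names share 4 loci in the table. Of these loci 3 were higher and 0 lower in db/db-IF than in db/db mice (4 and 0 at an unadjusted p under 0.05), with a median of 0.32. COX2 rose by 0.40 (limma adjusted p = 1.19e-05), COX1, whose locus also carries ND4 and ND4L, by 0.36 (limma adjusted p = 2.48e-05) and CYTB by 0.28 (limma adjusted p = 4.23e-04). Between db/db and db/m mice 1 locus was called, COX1, which was lower in db/db mice (-0.21, limma adjusted p = 0.0319). Its mean was 95070 FPKM in db/db-IF, 73927 FPKM in db/db mice and 85419 FPKM in db/m mice.

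Of the 36 nuclear subunits of complex I, 30 were higher and 1 lower in db/db-IF than in db/db mice, with a median of 0.35. Ndufa1 (0.62), Ndufb9 (0.62) and Ndufa6 (0.50) had the smallest adjusted p. Of the 4 subunits of complex II, which feeds electrons from succinate to complex III, 2 were higher (Sdhb by 0.24 and Sdhd by 0.13) and 0 lower (2 and 0 at an unadjusted p under 0.05), with a median of 0.11.

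Assembly factors were called in both directions, and the share called lower was below that of all tested loci. Of 6 factors of complex III 2 were higher and 1 lower (Uqcc3 0.42, Uqcc2 0.37 and Ttc19 -0.37), and of 22 tested factors of complex IV 12 were higher and 4 lower, with Cox14 (0.40), Surf1 (0.32) and Cmc2 (0.24) first by p. Among 6 assembly factors, inhibitors and small partners of ATP synthase 3 were higher and 0 lower: 2010107E04Rik by 0.49, Usmg5 by 0.34 and Atpif1, the inhibitor of the reverse reaction, by 0.43 (3 and 0 at an unadjusted p under 0.05). Of 14 regulators of mitochondrial biogenesis 0 were higher and 6 lower (0 and 7 at an unadjusted p under 0.05), with a median of -0.16, beside the 27.4% of all tested loci called lower. Yy1 (-0.36), Gabpa (-0.44) and Esrrg (-0.39), genes of transcription factors that bind promoters of respiratory genes, had the smallest adjusted p. With the length slope as a covariate, 0 regulators and 0 loci of mitochondrial DNA were called in this comparison, and 1 complex I subunit was higher and 1 lower. The same fit called 206 of the 17139 tested loci higher and 64 lower.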

How the data were processed

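Hippocampal RNA of the 31 mice was sequenced on the BGISEQ-500 platform. According to the submitters' processing notes and the methods of the study, the authors used Trimmomatic 0.38 for trimming, HISAT2 (version not given in the sources used here) for alignment to GRCm38.p6 and StringTie 1.3.4d for assembly and quantification, and they deposited 1 table of FPKM per locus and mouse. Values of loci with several gene names belong to all of those names. From this table, log2(FPKM + 1) of loci above 1 FPKM in at least 10 mice was fitted with limma 3.58.1 (group means, trended variance) in R 4.3.3, with Benjamini-Hochberg adjustment. The procedure was tested on simulated data. Ratios of isoforms were compared with two-sided permutation tests of 100000 resamples, adjusted over 15 tests.

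Members and lists were chosen with earlier results of these data known. Genes named with per-mouse values were, per complex, the 4 with the smallest adjusted p between db/db-IF and db/db mice, all members of isoform families, every member called between db/db and db/m mice and every member lower in db/db-IF mice; lists are given by counts, medians and up to 3 genes of smallest adjusted p. Lengths are those of the longest GENCODE M21 transcript. Python 3.11.15 with numpy 2.4.6, pandas 2.3.3 and scipy 1.17.1 was used. Alternatives were other pseudocounts and filters, quantile normalization, array weights, an ordinary linear model, read-quality sets, corrections for length, a replicate block and each mouse left out.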

Additional observations from a re-analysis of the deposited data

Results flagged for a closer look

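In 19 of 86 sets of 10 mice (43 members in the db/db-IF and db/db groups), 1 mouse stood apart. Its gap to its nearest neighbour was larger, as a share of the group's range, than Dixon's 95% critical value for 10 samples. Chance gives about 1 in 20 for separate groups. These sets use the same mice for every member, so 19 of 86 cannot be set against that rate. Groups of 11 mice (db/m) were not examined.

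Mouse 7 of db/db-IF, the mouse with the lowest length slope, was the highest of its group in 12 of these sets. Its values, with the nearest mouse in brackets, were 296 FPKM for Atp5d (232), 29.5 FPKM for Atp5g2 (22.8), 137 FPKM for Atp5h (118), 113 FPKM for Atp5o (92.7), 383 FPKM for Cox4i1 (301) and 305 FPKM for Cox5b (239.9). Further, it had 216 FPKM for Cox6a1 (160.2), 41.7 FPKM for Cox7a2 (32.1), 46.0 FPKM for Cox7b (39.9), 700 FPKM for Cox8a (567), 56.9 FPKM for Cyc1 (47.4) and 524 FPKM for Uqcrc1 (393). Mouse 10 of db/db, with the lowest slope of its group, was highest for Atp5d (210 FPKM, nearest 167), Atp5h (101 FPKM, nearest 88.4), Atp5j (153 FPKM, nearest 138) and Cycs (227 FPKM, nearest 203).

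The remaining 3 sets had a low mouse: mouse 6 of db/db for Atp5c1 (162 FPKM, nearest 172), mouse 9 of db/db for Atp5sl (27.3 FPKM, nearest 30.1) and mouse 11 of db/db-IF for Cox7a2l (40.7 FPKM, nearest 89.3). Causes of these values were not tested.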

How the results depend on the processing

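The count of members called higher in db/db-IF against db/db mice (35) stayed within 1.5 times under every alternative run except 1: with the length slope as a covariate it was 1, and 0 against db/m mice and against both groups combined. With that covariate 206, 297 and 116 of the 17139 tested loci were higher, in the same order of comparisons. This slope separates the same mice as fasting does. With an ordinary linear model that also had a library-size term 1 member, Atp5a1, was lower against db/db mice (-0.11), against db/m mice (1) and against both groups combined (1). Leaving out 1 mouse at a time gave 33 to 35 higher and 0 lower against db/db, 34 and 0 against db/m, and 33 to 36 higher and 0 to 1 lower (Atp5a1, without mouse 8 of db/db-IF) against both groups combined. The replicate numbers did not pair the mice (median correlation of same-numbered mice -0.0199), and the replicate block gave 35, 34 and 34 higher in these comparisons.

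In db/db against db/m mice the single call, Uqcrc2, was lost with the replicate block (0), in the higher read-quality set (0) and at an adjusted p under 0.01 (0). Members called higher numbered 2 with the slope covariate, with the length trend removed and with the ordinary linear model with a library-size term, 3 with array weights, 3 without mice 1, 7 and 11 of db/db-IF, and 2 without mouse 7 of db/db-IF and mouse 10 of db/db, an alternative chosen after seeing the data. Without single mice they numbered 1 to 2, adding Atp5c1 without mouse 1 and Uqcrc1 without mouse 7 of db/db-IF. Members called lower numbered 1 each with the slope covariate (Atp5d), array weights (Atp5b), without mice 1, 7 and 11 of db/db-IF (Atp5b) and without mouse 7 of db/db-IF and mouse 10 of db/db (Atp5d).

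In db/db-IF against db/db mice the direction turned with the slope covariate for 11 members: Atp5g1 (-0.055), Atp5g2 (-0.071), Cox6a1 (-0.029), Cox6b1 (-0.11), Cox8a (-0.044), Cox8b (-0.25), Uqcrfs1 (-1.61), Atp5o (-0.10), Uqcrc1 (-0.092), Uqcrq (-0.051) and Atp5c1 (-0.036). It turned with the length trend removed for Cox6b2 (-0.048), Atp5f1 (-0.050) and Atp5s (-0.021), in the lower read-quality set for Cox8b (-0.032) and with quantile normalization for Uqcrc2 (0.023). With a pseudocount of 0.1 it turned for Cox6a2 over Cox6a1 (0.082, and 0.029 against db/m) and Cox8b over Cox8a (0.063), and for Cox8b over Cox8a also without mice 1, 7 and 11 of db/db-IF (0.028). The cause was not tested. FPKM without counts set no limit of detection for forms under 1 FPKM.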
